A study of Mus musculus with 4 samples.

Results

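Plasmacytoid dendritic cells (pDCs) were followed in the livers of 4 mice, as a cell type described across genes and between genotypes. They were selected on measured transcripts, as cells with at least 3 UMIs (unique transcript counts) of Siglech, at least 1 UMI of Klk1, Ccr9 and Cox6a2 together, 0 UMIs of Cd3e and of Cd79a, and at most 2 UMIs of Clec4f, Vsig4 and Timd4 together. The selection was made among the 30362 barcodes whose number of genes seen lay between 500 and 6000 and whose mitochondrial share was no more than 10%, out of 44974 barcodes in all. It gave 884 pDCs, of which 96 came from the WT library, 195 from YAPKO, 214 from TAZKO and 379 from DKO.

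pDCs are dendritic cells of lymphoid appearance that sense viral nucleic acids in endosomes and can release large amounts of type I interferon. Their identity depends on the E protein TCF4, while the E protein inhibitor ID2 belongs to conventional dendritic cells (cDCs). In the liver they are found beside type 1 and type 2 conventional dendritic cells (cDC1 and cDC2), and at rest they are known for low antigen presentation.

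The study measured single-cell RNA of untreated livers to look further at YAP induction in endothelial and Kupffer cells. YAP, TAZ or both were deleted in the epithelium. Hepatocytes and non-parenchymal cells were isolated by digestion, mixed and loaded on 10x droplets, with 1 library of 1 mouse per genotype. The genotypes were wild type (WT), Yap1 knock-out (YAPKO), Wwtr1 knock-out, which removes TAZ (TAZKO), and the double knock-out (DKO). The deletion in floxed mice was driven by albumin Cre, so by design it reached hepatocytes and biliary cells and left the alleles of pDCs intact, which was not measured here. The labels give neither the age nor the sex of the mice.

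The deleted genes were read first, in hepatocytes, as CPM, UMIs scaled to a common sum of all UMIs of the cells. Yap1 stood at 21.4 CPM in WT, 4.5 in YAPKO, 47.2 in TAZKO and 4.56 in DKO. It was low in both genotypes that lack it. Wwtr1 stood at 4.9 CPM in WT, 12.8 in YAPKO, 1.21 in TAZKO and 2.35 in DKO, and it was lowest in the genotypes that lack it. In pDCs, Yap1 had 14 UMIs in WT, 26 in YAPKO, 25 in TAZKO and 18 in DKO. Wwtr1 had 43, 121, 55 and 134 UMIs in the same order. In the filtered pDCs described further on, which have under 3 UMIs of the defining genes of each lineage tested there, Yap1 summed to 0, 0, 2 and 1 UMIs and Wwtr1 to 0, 1, 1 and 1, so that Hippo effector transcripts were at or near 0 in them.

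The libraries held 66259687 UMIs in WT, 85989454 in YAPKO, 49022089 in TAZKO and 77411746 in DKO. A pDC had a median of 6979.5 UMIs in WT, 7284 in YAPKO, 6465 in TAZKO and 5827 in DKO. Over all kept cells the medians were 4618, 7337, 3555.5 and 5952.5 UMIs, so that pDCs were deeper than the average kept cell in WT and TAZKO and slightly shallower in YAPKO and DKO. Mitochondrial UMIs had a median share in pDCs of 1.21% in WT, 1.25% in YAPKO, 1.51% in TAZKO and 1.2% in DKO. Over all pairs of libraries, 214 barcodes occurred in both, 96 were kept in both and 0 were pDCs in both. With 1 mouse per genotype, no difference between genotypes has a replicate check, and intervals given here (95%, exact) cover counting error only.

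The genes of the selection describe the cells without testing anything. Siglech, the sialic acid receptor Siglec-H, had 1738 CPM in WT, 1611 in YAPKO, 1878 in TAZKO and 1885 in DKO. Klk1, a tissue kallikrein protease, had 1339, 1074, 1160 and 1166 CPM in the same order. Both were of like level in the 4 libraries. Ccr9, the receptor for the gut chemokine CCL25, had 355 CPM in WT, 333 in YAPKO, 917 in TAZKO and 478 in DKO, and was high in TAZKO. Cox6a2, the muscle isoform of a cytochrome oxidase subunit, had 864, 752, 817 and 635 CPM, lowest in DKO. A pDC carried a UMI of each of Klk1, Ccr9 and Cox6a2 in 47.9% of cells in WT, 54.4% in YAPKO, 71% in TAZKO and 59.6% in DKO. T cells had a Ccr9 UMI in 13.5% of cells in WT, 12.7% in YAPKO, 19.5% in TAZKO and 12.8% in DKO, where pDCs had one in 85.4%, 86.7%, 95.8% and 89.7%. After each cell was thinned to 1000 UMIs, the pDC shares were 30.2%, 28.2%, 49.1% and 37.9% and the T cell shares 4.38%, 3.08%, 6.22% and 4.58%, from median depths in T cells of 5217, 4952.5, 4366 and 3431 UMIs.

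Near the threshold, the 55 cells with 3 or 4 Siglech UMIs that met the limits on the other lineages, 51 of them with a second marker, had 2665 CPM of Bst2 and 1292 CPM of Tcf4. The 28 such cells with 2 Siglech UMIs had 2052 CPM of Bst2 and 1009 of Tcf4. The 76 such cells with 1 Siglech UMI had 617 CPM of Bst2 and 239 of Tcf4. Cells just outside the threshold thus carried less of both genes, in steps. Irf8 went the same way, with 1396, 1142 and 376 CPM in the same order. Ly6d did not, with 1618, 1645 and 104 CPM. Of the 985 kept cells with at least 3 Siglech UMIs, 22 had no second marker, 32 had Cd3e, 24 had Cd79a and 29 exceeded the Kupffer limit, with some cells failing on several counts.

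Promoters of the selected genes are shown because pDC identity rests on an E protein, whose family reads the E-box CANNTG. They are RefSeq promoters of build GRCm38.p6, printed in the direction of the gene, for Siglech at chr7:55767934-55768233, Klk1 at chr7:44225110-44225409 and Ccr9 at chr9:123766961-123767260, each on the + strand. Capitals mark CAGGTG or its other strand CACCTG, a form of the E-box.
Siglech: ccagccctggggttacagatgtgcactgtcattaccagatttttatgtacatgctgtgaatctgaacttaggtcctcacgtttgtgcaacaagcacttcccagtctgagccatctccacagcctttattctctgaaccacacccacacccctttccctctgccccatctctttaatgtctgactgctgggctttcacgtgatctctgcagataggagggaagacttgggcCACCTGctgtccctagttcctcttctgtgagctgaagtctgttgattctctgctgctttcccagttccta
Klk1: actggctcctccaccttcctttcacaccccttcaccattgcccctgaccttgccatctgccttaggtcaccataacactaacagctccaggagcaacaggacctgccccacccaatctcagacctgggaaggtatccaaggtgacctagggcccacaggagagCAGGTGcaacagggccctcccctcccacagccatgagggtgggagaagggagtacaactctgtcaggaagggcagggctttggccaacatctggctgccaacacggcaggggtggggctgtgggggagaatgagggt
Ccr9: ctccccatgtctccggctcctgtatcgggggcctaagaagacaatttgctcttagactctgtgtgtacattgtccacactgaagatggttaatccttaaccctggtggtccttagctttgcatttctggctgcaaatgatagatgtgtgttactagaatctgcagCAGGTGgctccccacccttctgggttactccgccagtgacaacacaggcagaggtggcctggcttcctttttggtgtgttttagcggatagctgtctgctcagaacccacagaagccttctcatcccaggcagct
Of the 4 genes of the selection, 3 matched the table, and Cox6a2 has no entry. Each of the 3 promoters held CAGGTG or CACCTG once and CAGCTG 0 times, with CANNTG at 3 places in Siglech, 3 in Klk1 and 2 in Ccr9. Over both strands of all 27025 promoters, CANNTG occurred in 72.1%, CAGGTG or CACCTG in 20% and CAGCTG in 16.1%. Of 32 pDC identity genes outside the selection 25 matched, and CANNTG occurred in 80% of them, CAGGTG or CACCTG in 16% and CAGCTG in 12%. The matches are letters in a window and were not tested as binding sites.

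pDCs made up a larger share of the cells in each knock-out library than in WT. Their share of kept cells was 1.34% (1.09 to 1.64) in WT, 3.11% (2.69 to 3.57) in YAPKO, 2.48% (2.16 to 2.83) in TAZKO and 4.57% (4.13 to 5.04) in DKO. WT was lowest and DKO highest, and the WT interval overlapped none of the others. Since hepatocytes were mixed in, the share was also taken of kept cells other than hepatocytes, where it was 1.92% in WT, 3.73% in YAPKO, 3.68% in TAZKO and 6.69% in DKO. Within the dendritic cells, counted as pDCs, cDC1 and cDC2, pDCs were 43.2% (36.6 to 50) in WT, 47.7% (42.7 to 52.6) in YAPKO, 62.2% (56.9 to 67.4) in TAZKO and 64.1% (60.1 to 68) in DKO. On this scale WT and YAPKO overlapped, and TAZKO and DKO lay above both. RNA of another lineage, described below, was found in 68.1% of cDC1 in WT, 67.7% in YAPKO, 40.3% in TAZKO and 40% in DKO. Without such cells in all 3 types, 62 pDCs stood beside 30 cDC1 and 25 cDC2 in WT, 128 beside 43 and 54 in YAPKO, 153 beside 40 and 39 in TAZKO, and 265 beside 54 and 85 in DKO, which brings the libraries closer together. No intervals were taken for these counts. The separation of TAZKO and DKO from WT and YAPKO was therefore not established without such cells.

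**Figure D1:**
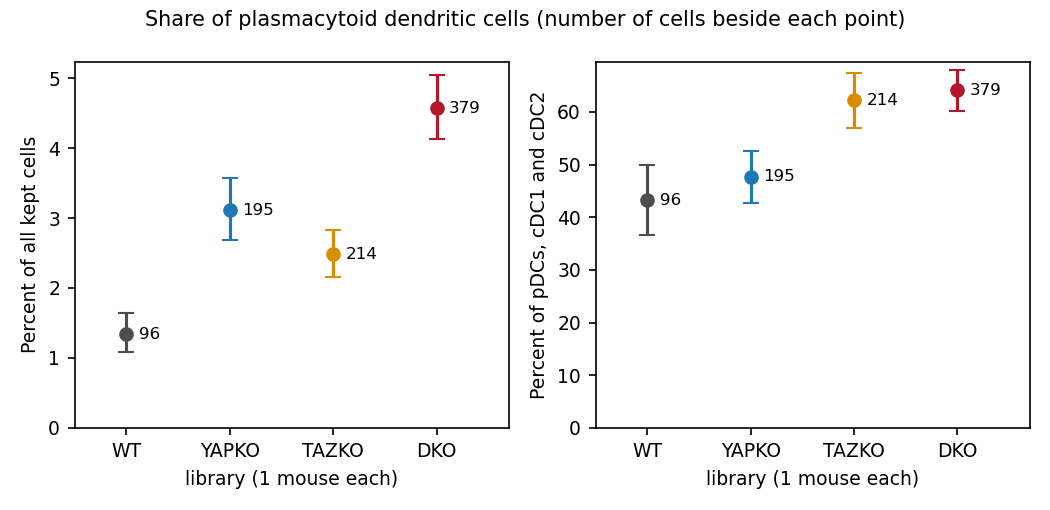
Share of pDCs in each library among all kept cells (left) and among pDCs, cDC1 and cDC2 (right), in percent, with exact 95% intervals as bars and the number of pDCs beside each point. WT is lowest on the left at 1.34%, and on the right TAZKO and DKO stand above WT and YAPKO.

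The plot of shares shows that the order of the knock-out libraries depends on the cells counted beside the pDCs. Limits of 500 to 6000 on UMIs in place of genes gave 0.174% in WT, 1.04% in YAPKO and 0.716% in TAZKO, and 4.25% in DKO. With each kept cell thinned to 2000 UMIs before the rule was applied, the shares were 0.976% in WT, 1.95% in YAPKO, 2.17% in TAZKO and 3.33% in DKO, so that WT stayed lowest and DKO highest under both.

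Many pDCs carried RNA of another liver lineage, counted where a cell had at least 3 UMIs of that lineage's defining genes. Endothelial RNA (Stab2, Clec4g, Ptprb, Kdr) was found in 30.2% of pDCs in WT, 32.8% in YAPKO, 25.7% in TAZKO and 25.6% in DKO. B cells of the same libraries had it in 2.98%, 1.12%, 2.73% and 3.54%, T cells in 15.5%, 7.5%, 10.8% and 11.5%, and cDC1 in 63.8%, 59.4%, 34.3% and 34.4%. The share thus differed widely between immune types of 1 library. pDCs with endothelial RNA were deeper, with a median of 12314 UMIs in WT, 15386 in YAPKO, 10482 in TAZKO and 11954 in DKO, against 6601, 6605, 6015 and 5452.5 in those without. cDC1 with endothelial RNA were shallower, with 5979, 9528, 5185 and 10227 UMIs against 15464.5, 15265, 12254.5 and 12837. In cDC1, used in the comparisons below, the endothelial list summed to 6429 in WT, 6985 in YAPKO, 2298 in TAZKO and 3512 CPM in DKO and the list of cDC1 markers to 1817, 1600, 2268 and 1929 CPM.

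**Figure D2:**
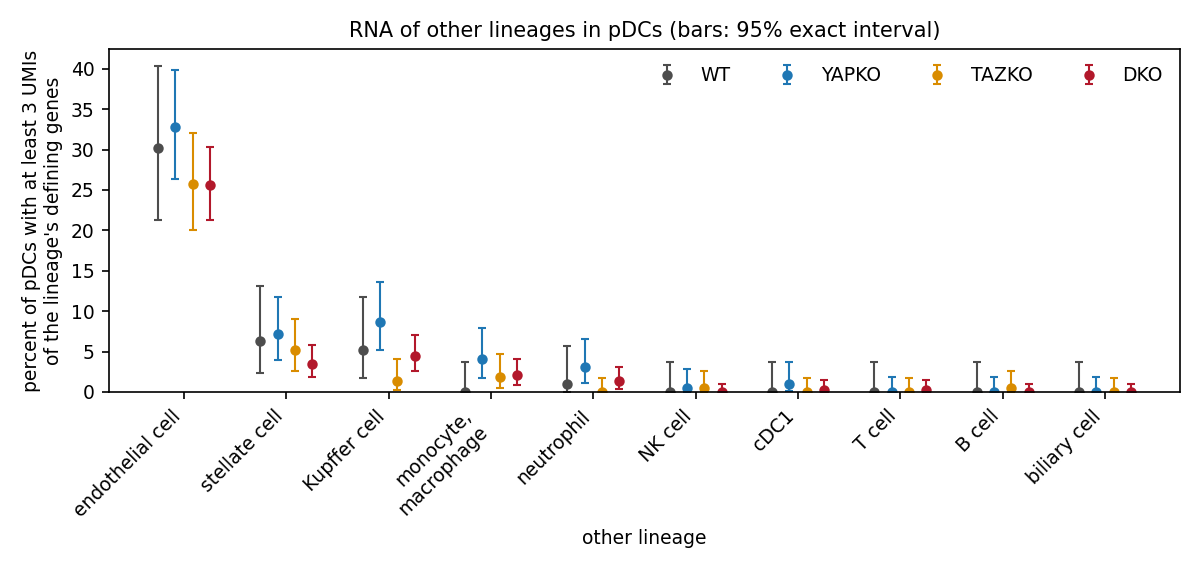
Percent of pDCs in each library with at least 3 UMIs of the defining genes of another lineage, with exact 95% intervals as bars. Endothelial RNA is the most frequent, between 25.6% and 32.8%, and every other lineage lies under 9%.

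The plot of other lineages shows stellate RNA in 3.43% to 7.18% of pDCs, Kupffer RNA in 1.4% to 8.72% and neutrophil RNA in 0% to 3.08%. The summed endothelial list of 7 genes stood at 3985 CPM in WT, 4366 in YAPKO, 2626 in TAZKO and 3275 in DKO, with Clec4g the most abundant in WT and Ptprb in the others. The neutrophil list of 6 genes stood at 733, 330, 1.26 and 457 CPM, led by S100a9 except in TAZKO, where the whole list had 2 UMIs, and in WT 1 pDC held 599 UMIs of its defining genes. The stellate list of 6 genes, led by Dcn, stood at 173, 387, 660 and 182 CPM, and the Kupffer list of 8 genes, led by C1qb except in TAZKO, where C1qa led, at 158, 113, 75.5 and 328 CPM. Among the 12 hepatocyte genes, led by Alb, the sum was 5492 CPM in WT, 4246 in YAPKO, 9446 in TAZKO and 11550 in DKO. Krt19 and Krt7 of the biliary list were at 0 in pDCs of all 4 libraries, and the list's 60.9, 66.8, 18.9 and 55.2 CPM came mainly from Epcam.

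Markers of lymphocytes, plasma cells and red cells were low in pDCs, and those of monocytes and of cDC2 were not. The B cell list of 7 genes summed to 70.5 CPM in WT, 63.8 in YAPKO, 42.8 in TAZKO and 50.8 in DKO, nearly all of it Cd79b, with Cd79a at 0 by selection. The T cell list of 6 genes summed to 15.5, 15.7, 15.1 and 19.3 CPM, led by Cd28, and the NK cell list of 6 genes to 0, 6.58, 17 and 1.33 CPM. Plasma cell genes (4) summed to 23.9, 15.2, 27.7 and 23.9 CPM, led by Sdc1, and the 4 red cell genes to at most 2 UMIs in a library. The monocyte and macrophage list of 8 genes summed to 2586, 2642, 1711 and 1503 CPM, of which Ly6c2, also a pDC gene, was the most abundant, and to 1965, 2264, 2164 and 3017 CPM in cDC2. The cDC2 list of 5 genes, led by Clec10a, summed to 586, 576, 454 and 538 CPM, between its level in cDC1 (81.8, 140, 96.3 and 88.8) and in cDC2 (1873, 2858, 1465 and 1807). Removing every pDC with at least 3 UMIs of the defining genes of B, T, NK, Kupffer, monocyte and macrophage, cDC1, neutrophil, endothelial, stellate or biliary cells left 62 pDCs in WT, 128 in YAPKO, 153 in TAZKO and 265 in DKO, called filtered pDCs below. Hepatocyte, cDC2, plasma cell and red cell genes were not part of that removal. In filtered pDCs the hepatocyte list summed to 6797, 3348, 10235 and 7399 CPM and the cDC2 list to 792, 739, 533 and 726 CPM. They are therefore not free of RNA of other lineages. In these cells the endothelial list stood at 157, 147, 120 and 138 CPM, and the neutrophil list at 16.9, 11.4, 1.07 and 4.6 CPM. The part of this RNA in the results was not tested beyond the filtered values given.

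The label was set beside genes the selection did not use, by comparison with cDC1, cDC2 and B cells of the same 4 libraries. The gene lists were chosen with earlier results of these data known, so this is not an independent test of the label. UMIs were summed per library and cell type and compared with edgeR's quasi-likelihood test, with library as a block, and a gene was called at a Benjamini-Hochberg adjusted p of at most 0.05. Of 31 pDC identity genes tested, 30 were called higher in pDCs than in cDC1 and 1 lower, where 12.7% of all 10366 genes tested were called higher and 12.2% lower. Against cDC2, 26 were higher and 2 lower, with 17.1% and 16.4% of all genes called. Against B cells, 26 were higher and 2 lower, with 26.7% and 23.5% of all genes called. Their median log2 fold change was 4.55 against cDC1, 2.95 against cDC2 and 3.87 against B cells, beside -0.01, 0.06 and -0.01 over all genes. Most markers of the list thus went with the label pDC, and Flt3, Ptprc and Blnk were the members called lower in some comparison.

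Bst2, the antiviral membrane protein that serves as a pDC antigen, had 4795 CPM in WT, 4426 in YAPKO, 3628 in TAZKO and 4170 in DKO. It was above all 3 other types in 4 of 4 libraries, by 2.69 ± 0.17 (log2, SE) against cDC1, 2.95 ± 0.17 against cDC2 and 4.36 ± 0.18 against B cells. Lair1, an inhibitory collagen receptor, had 652, 607, 744 and 699 CPM and was higher by 6.16 ± 0.37, 3.89 ± 0.32 and 6.99 ± 0.39. Cd300c, a membrane receptor of the CD300 family, had 358, 372, 351 and 371 CPM, and 0 UMIs in B cells, which puts it at least 9.68 (log2) above them. Pacsin1, an adaptor of membrane trafficking, had 172, 146, 150 and 171 CPM, and 0 UMIs in cDC2, for a log2 difference of at least 7.41. These 4 genes were of like level across the libraries and high in pDCs in each of them.

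**Figure D3:**
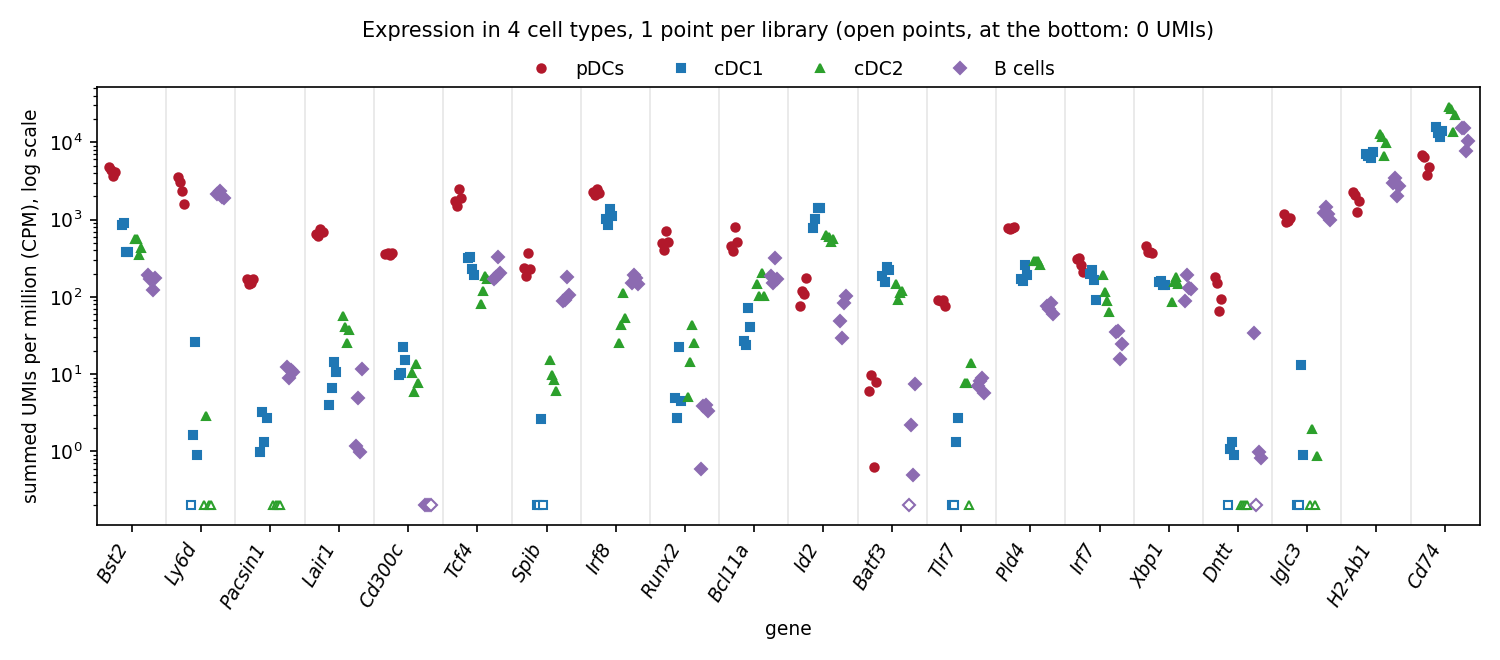
CPM of 20 genes, on a log axis, in pDCs, cDC1, cDC2 and B cells, with 1 point per library and open points at the bottom for 0 UMIs. Identity genes such as Bst2 and Lair1 are highest in pDCs, Id2, Batf3 and the class II genes are low in pDCs, and Iglc3 is high in both pDCs and B cells.

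The plot of levels in 4 cell types also shows that libraries of 1 type lie close together beside the distance between types. Over all genes, 592 of 10366 were called higher in pDCs than in all 3 types and 375 lower. Where cells with RNA of another lineage were left out of all 4 types, which was chosen after the data were seen, 1124 of the 1320 genes higher than in cDC1, 1220 of the 1774 higher than in cDC2 and 1553 of the 2772 higher than in B cells were called again. Of these sets 1228, 1387 and 1956 could be tested again, and opposite calls numbered 0, 6 and 28. With only the pDCs filtered, opposite calls numbered 0 against cDC1, 214 against cDC2 and 381 against B cells.

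The genes furthest above all 3 types were named by a fixed rule of the 10 largest. Pgam2 and Atp2a1 among them are known from striated muscle, and whether muscle genes were enriched was not tested. Pgam2, the muscle form of the glycolytic enzyme phosphoglycerate mutase, had 256 CPM in WT, 148 in YAPKO, 221 in TAZKO and 136 in DKO. Its log2 fold change was 9.05 ± 0.39 against cDC1, and at least 7.50 against cDC2 and 8.59 against B cells, which had 0 UMIs. Atp2a1, the calcium pump SERCA1 of fast muscle, had 92, 128, 95.6 and 106 CPM, 8.34 ± 0.44 (log2) above cDC1 and 7.77 ± 0.39 above B cells. Both genes were seen in 4 of 4 libraries and at or near 0 in the other types. Other muscle genes, chosen after their values were seen, were near 0. Acta1, Myh1, Myh4 and Myod1 had 0 UMIs in pDCs of all 4 libraries, and Des had 2, 10, 5 and 10 UMIs.

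Further genes of the same rule included Klk1b27, Cd8b1, Gm12253, Paqr5, Adam11, Sh3bgr and Robo3. DESeq2 called 8 of the 10 against all 3 types, and all 10 were called when 1 library was left out. Klk1b27, a neighbour of Klk1 in the kallikrein family, had 221, 220, 156 and 222 CPM, 9.28 ± 0.42 (log2) above cDC1, 8.78 ± 0.45 above cDC2 and 8.22 ± 0.36 above B cells. Of 26 kallikreins in the files 2 were tested, Klk1b27 and Klk8. Klk8 was called lower than in cDC2 and not called against cDC1 or B cells. Over all genes 12.7% and 12.2% were called higher and lower against cDC1, 17.1% and 16.4% against cDC2, and 26.7% and 23.5% against B cells. The medians of the 2 were 4.17, 3.10 and 4.12. Klk1b27 was named for its large difference, so these medians do not describe the family. Cd8b1, the beta chain of CD8, had 190, 292, 296 and 254 CPM and 0 UMIs in cDC2 and in B cells, at least 8.14 and 9.22 (log2) below pDCs. Cd8a, its partner chain, had 86, 109, 162 and 91.1 CPM in pDCs and 2.39 ± 0.31 (log2) more than in cDC1. T cells were set apart from pDCs by Cd3e at 0, and the rest of their list is given above.

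**Figure D4:**
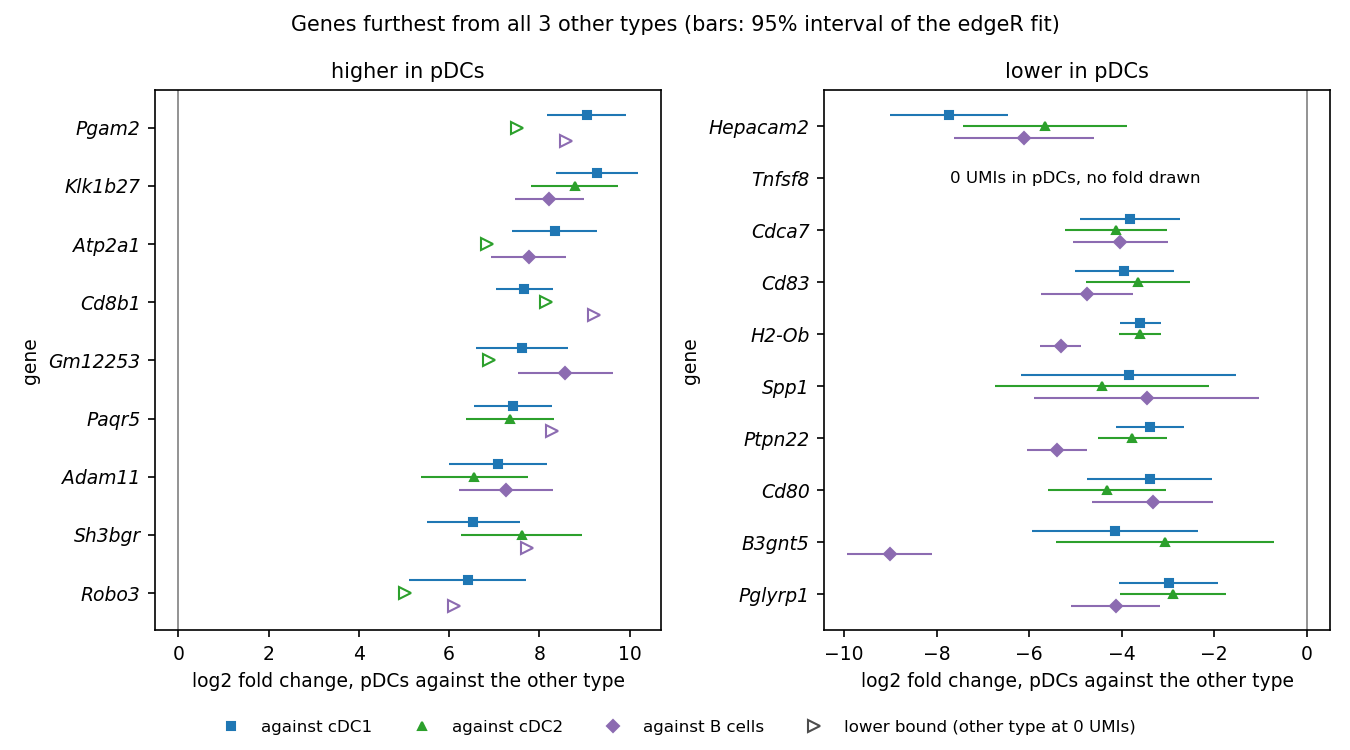
Log2 fold change of pDCs against cDC1, cDC2 and B cells for genes furthest above (left) and below (right) all 3 types, of which those named in the text are drawn, with 95% intervals of the edgeR fit over 4 libraries as bars and open triangles for lower bounds where the other type had 0 UMIs. Genes on the left lie above 4 on the log2 scale against every type, and Tnfsf8 is not drawn since it had 0 UMIs in pDCs.

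The plot of the furthest genes shows a smaller distance on the lower side. It holds H2-Ob, Cd83, Cd80, Hepacam2, Tnfsf8, Cdca7, Spp1, Ptpn22, B3gnt5 and Pglyrp1. H2-Ob, a chain of the peptide-loading modulator H2-O, had 10.8 CPM in WT, 21.3 in YAPKO, 8.18 in TAZKO and 11.6 in DKO, and was lower by -3.60 ± 0.21 (log2) against cDC1, -3.60 ± 0.21 against cDC2 and -5.32 ± 0.21 against B cells. Cd83, a maturation marker of dendritic cells, had 4.78, 4.05, 1.26 and 5.65 CPM, and was lower in 4 of 4 libraries against each type. Both stood at low levels in every library of pDCs. Among these 10 genes, between 7 and 9 were called against all 3 types again when 1 library was left out, and 6 with cells carrying RNA of another lineage left out of all 4 types.

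Transcription factors of dendritic cell fate were called in both directions. Of 19 tested, 9 were called higher and 7 lower than in cDC1, 11 and 8 against cDC2, and 13 and 4 against B cells. Their median log2 fold change was 0.02, 0.69 and 1.03 in that order, beside 12.7% and 12.2% of all genes against cDC1, 17.1% and 16.4% against cDC2, and 26.7% and 23.5% against B cells called higher and lower. Tcf4, the E protein of pDC identity, had 1722 CPM in WT, 1514 in YAPKO, 2468 in TAZKO and 1923 in DKO. It was above the other types in 4 of 4 libraries, by 2.64 ± 0.21 (log2) against cDC1, 3.51 ± 0.23 against cDC2 and 2.78 ± 0.21 against B cells. Runx2, which supports pDC exit from bone marrow, had 502, 405, 707 and 512 CPM and was higher by 6.04 ± 0.33, 4.36 ± 0.29 and 7.19 ± 0.35. Spib, an Ets factor shared with B cells, had 237, 187, 369 and 228 CPM, and was 8.69 ± 0.38 above cDC1 but 0.79 ± 0.17 above B cells. Irf8, needed by cDC1 as well, had 2261, 2109, 2480 and 2227 CPM and was nearest to cDC1, 0.91 ± 0.19 above it. The pDC factors Tcf4, Runx2, Spib and Bcl11a were each highest in TAZKO, while Irf7, given below, was lower there than in WT. In TAZKO the list's median ratio to WT was 0.37 on the log2 scale beside 0.04 over all genes. Of 17 factors compared there, 1 was at least 2-fold higher and 0 lower, beside 4.1% and 2.13% of all genes.

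Id2 and Batf3 were lower than in both cDC types. Id2, the E protein inhibitor, had 75.3 CPM in WT, 119 in YAPKO, 109 in TAZKO and 174 in DKO, and was lower by -3.43 ± 0.26 (log2) against cDC1 and -2.58 ± 0.25 against cDC2. In the filtered pDCs it had 24.1, 33, 53.4 and 39.4 CPM, so that the level in DKO was no longer the highest. Batf3, a cDC1 factor, had 5.97, 9.62, 0.629 and 7.98 CPM, -5.12 ± 0.40 (log2) against cDC1 and -4.41 ± 0.42 against cDC2. Irf7, the factor that drives interferon genes, had 312, 319, 257 and 211 CPM, and was higher than in cDC2 and B cells by 1.11 ± 0.19 and 2.99 ± 0.21. Its difference from cDC1, 0.58 ± 0.18 with an adjusted p of 0.0271 and higher in 4 of 4 libraries, was not called where cells with RNA of another lineage were left out of all types (log2 fold change 0.14, adjusted p = 0.566). For Tcf4 the same step gave 5.02 (log2) against cDC1.

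The nucleic acid sensing genes bore on what pDCs are best known for. Of 22 tested, 8 were called higher and 3 lower than in cDC1, 8 and 5 against cDC2, and 14 and 3 against B cells, with median log2 fold changes of 0.27, 0.12 and 0.69, beside 12.7% and 12.2% of all genes against cDC1, 17.1% and 16.4% against cDC2, and 26.7% and 23.5% against B cells. Tlr7, the endosomal receptor for single-stranded RNA, had 92 CPM in WT, 87.6 in YAPKO, 91.2 in TAZKO and 76.8 in DKO, and was higher by 6.36 ± 0.52, 3.11 ± 0.38 and 3.12 ± 0.32. A Tlr7 UMI was found in 51% of pDCs in WT, 53.3% in YAPKO, 49.5% in TAZKO and 42.5% in DKO, and in 1.01%, 1.54%, 0.533% and 2.15% of T cells. Thinned to 1000 UMIs, the pDC shares were 11.5%, 9.74%, 9.35% and 9.02% and the T cell shares 0%, 0.385%, 0% and 0.287%. Tlr9, the receptor for DNA, had 5.97, 5.57, 5.66 and 5.32 CPM and did not pass the filter on low counts. Tlr3, a receptor for double-stranded RNA, was lower than in cDC1 by -4.07 ± 0.22.

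Other sensing genes went both ways. Irf5, a factor downstream of the receptors, was lower than in cDC1 and cDC2 by -0.99 ± 0.13 and -1.33 ± 0.13 (log2), and Myd88 and Irak4 were called lower than in cDC2. Pld4, a nuclease of the endosome, had 784, 760, 782 and 793 CPM and was higher by 1.84 ± 0.14 (log2), 1.22 ± 0.14 and 3.07 ± 0.15. Unc93b1, the chaperone that brings the receptors to endosomes, had 564, 568, 453 and 523 CPM and was higher by 0.67 ± 0.13, 0.71 ± 0.13 and 0.72 ± 0.13. Slc15a4, a lysosomal transporter needed for their signalling, had 96.8, 81, 109 and 96 CPM and was higher by 2.11 ± 0.15, 0.80 ± 0.14 and 0.70 ± 0.13. Pld4, Unc93b1 and Slc15a4 were higher in 4 of 4 libraries against each type.

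Interferon itself was nearly undetected. Of 21 genes of type I, II and III interferons, 0 passed the filter on low counts for edgeR, and Ifnb1 was the 1 with any UMI in pDCs, with 0 UMIs in WT, 0 in YAPKO, 4 in TAZKO and 2 in DKO. Of 44 interferon-stimulated genes tested, 7 were called higher and 9 lower than in cDC1, 8 and 15 against cDC2, and 25 and 5 against B cells, with medians of -0.26, -0.28 and 0.93. Over all genes 12.7% and 12.2% were called against cDC1, 17.1% and 16.4% against cDC2, and 26.7% and 23.5% against B cells. With cells carrying RNA of another lineage left out of all types, 6 of 38 were higher and 16 lower against cDC1, 6 and 22 against cDC2, and 20 and 10 against B cells, with medians of -0.54, -0.94 and 0.58. Over all genes this step, also used for lists below, called 1706 higher and 1743 lower than in cDC1. Against cDC2 it called 1590 and 1632, and against B cells 1904 and 2030. The genes tested in this step were not the same set as in the main test, and their number is not given here. List counts of this step, here and below, thus have no share over all genes beside them. The receptor chain Ifnar1 had 147, 144, 155 and 131 CPM, higher by 1.22 ± 0.12, 0.99 ± 0.13 and 1.46 ± 0.12. Among all 16 interferon and cytokine receptors, 8 were called higher and 4 lower than in cDC1, 7 and 6 against cDC2, and 11 and 1 against B cells, with medians of 0.57, 0.09 and 1.42.

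Part of the secretory pathway was higher in pDCs than in the other types. Over all genes, 12.7%, 17.1% and 26.7% were called higher than in cDC1, cDC2 and B cells, and 12.2%, 16.4% and 23.5% lower. Of 29 secretory genes tested, 10 were called higher and 2 lower than in cDC1, 15 and 1 against cDC2, and 17 and 2 against B cells. Their median log2 fold changes were 0.29, 0.60 and 0.47. With cells carrying RNA of another lineage left out of all types, 17 were higher and 4 lower against cDC1. Against cDC2 they were then 21 and 1, and against B cells 21 and 2. Xbp1, the factor of the unfolded protein response that enlarges the endoplasmic reticulum, had 461 CPM in WT, 384 in YAPKO, 376 in TAZKO and 370 in DKO, and was higher by 1.24 ± 0.19 against each of the 3 types. Sec61b, a subunit of the protein channel, had 1173, 1182, 1246 and 1165 CPM and was higher by 0.77 ± 0.13, 0.58 ± 0.13 and 0.85 ± 0.13. Of 6 cytochrome oxidase isoforms tested outside the selection, 0 were called against cDC1 or B cells in the edgeR test, and against cDC2 Cox6b1 and Cox6b2 were lower. Their medians were -0.17, -0.12 and -0.08. With cells carrying RNA of another lineage left out of all types, 0 were higher and 3 lower against cDC1. Against cDC2 they were then 0 and 2, and against B cells 2 and 0. Cox6a1, the common counterpart of Cox6a2, had 309, 308, 350 and 377 CPM in pDCs.

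Lymphoid-type genes were far above cDC1 and cDC2 in pDCs, and not above B cells as a group. Of 12 tested, 11 were called higher and 1 lower than in cDC1, 11 and 1 than in cDC2, and 5 and 5 than in B cells, with medians of 7.04, 3.84 and -0.31, where 12.7% and 12.2% of all genes against cDC1, 17.1% and 16.4% against cDC2, and 26.7% and 23.5% against B cells were called higher and lower. Iglc3, an immunoglobulin lambda constant region, had 1172 CPM in WT, 936 in YAPKO, 957 in TAZKO and 1040 in DKO, where B cells had 1216, 1433, 1166 and 984. It was not called against B cells (log2 fold change -0.57 ± 0.29, adjusted p = 0.115). Ighm, the constant region of IgM, had 675, 556, 814 and 665 CPM, 2.81 ± 0.17 (log2) above cDC1 and -2.44 ± 0.16 against B cells. Igkc, of the kappa chain, had 576, 503, 443 and 530 CPM and was -6.17 ± 0.26 against B cells. Ighm and Igkc were thus below B cells by the test, and whether Iglc3 was equal in both was not tested. Dntt, the terminal transferase of early lymphoid cells, had 179 CPM in WT, 149 in YAPKO, 64.8 in TAZKO and 93.7 in DKO. It was higher in the first 2 libraries than in the last 2. Rag2 had 0 UMIs in all 4.

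Trafficking receptors other than Ccr9 went both ways. Of 16 tested, 6 were called higher and 1 lower than in cDC1, 6 and 6 against cDC2, and 8 and 5 against B cells, with medians of 0.16, -0.15 and 0.86, beside 12.7% and 12.2% of all genes against cDC1, 17.1% and 16.4% against cDC2, and 26.7% and 23.5% against B cells. Cxcr3, a receptor for interferon-induced chemokines, had 68.1, 73.9, 19.5 and 65.5 CPM and was 4.06 ± 0.53 above cDC2. S1pr1 had 59.7, 75.4, 28.9 and 55.8 CPM in all pDCs and 0, 0, 6.41 and 0.657 in the filtered pDCs.

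The counts of secreted factors moved with RNA of other lineages. Of 15 cytokines and chemokines tested, 5 were called higher and 3 lower than in cDC1, 4 and 5 against cDC2, and 7 and 4 against B cells, with medians of -0.57, -0.02 and 0.47, beside 12.7% and 12.2% of all genes against cDC1, 17.1% and 16.4% against cDC2, and 26.7% and 23.5% against B cells. With cells carrying RNA of another lineage left out of all types, 13 were tested, and 4 were higher and 7 lower against cDC1, 3 and 8 against cDC2, and 4 and 3 against B cells, with medians of -2.82, -4.18 and -0.92. Ccl4, an inflammatory chemokine, had 448 CPM in WT, 97.2 in YAPKO, 166 in TAZKO and 304 in DKO, and was higher by 3.37 ± 0.63 (log2), 4.64 ± 0.80 and 3.52 ± 0.63. It came from few cells, since the top 10% of pDCs held 95.2% of its UMIs in WT, 97.9% in YAPKO, 96.2% in TAZKO and 88.8% in DKO. Cxcl9 and Cxcl10 did not persist in the filtered pDCs, where Cxcl9 had 0, 0, 2.14 and 1.31 CPM.

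Most genes of antigen presentation, and most genes of division beside cDC1 and cDC2, were lower in pDCs. Of 18 genes of MHC class II and costimulation, 1 was called higher and 13 lower than in cDC1, 0 and 16 against cDC2, and 1 and 15 against B cells, with medians of -1.61, -2.29 and -1.64. For this list and the next, the shares called higher and lower were 12.7% and 12.2% of all genes against cDC1, 17.1% and 16.4% against cDC2, and 26.7% and 23.5% against B cells. Cd74, the invariant chain, had 6941 CPM in WT, 6352 in YAPKO, 3825 in TAZKO and 4757 in DKO, and was lower by -1.56 ± 0.16 (log2), -2.32 ± 0.16 and -1.50 ± 0.16. Ciita, the master activator of class II genes, had 39.4, 45.6, 54.1 and 37.6 CPM and was lower by -2.47 ± 0.18, -3.05 ± 0.18 and -1.90 ± 0.18. Of 20 genes of dividing cells, 18 were called lower than in cDC1, 19 than in cDC2 and 11 than in B cells, and 0 higher in the edgeR test, with medians of -2.06, -2.52 and -1.35. At least 3 UMIs of 5 division genes were found in 2 of 96 pDCs in WT, 2 of 195 in YAPKO, 1 of 214 in TAZKO and 1 of 379 in DKO, against 6 of 94, 8 of 133, 8 of 67 and 10 of 90 cDC1, which were deeper (median 8911.5, 13470, 11284 and 12272.5 UMIs). In B cells, which were shallower, they were 6 of 436, 8 of 446, 5 of 550 and 3 of 339. Dividing pDCs were rare in each library.

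Transitional dendritic cells, an intermediate of pDCs and cDC2, have a gene list of their own. The counts of this and the next 3 lists stand beside 12.7% and 12.2% of all genes against cDC1, 17.1% and 16.4% against cDC2, and 26.7% and 23.5% against B cells called higher and lower. Of 12 tested, 3 were called higher and 7 lower than in cDC1, 3 and 9 against cDC2, and 5 and 2 against B cells, with medians of -1.05, -2.33 and 0.52. Clec12a, an inhibitory lectin, had 371, 275, 152 and 256 CPM and was 0.99 ± 0.23 above cDC1, 1.05 ± 0.24 above cDC2 and 3.63 ± 0.27 above B cells. Crip1 was on the other side, -2.42 ± 0.15 against cDC2. Immediate early and heat shock genes, which respond to tissue digestion, were called lower than in cDC1 in 14 of 20, than in cDC2 in 15 and than in B cells in 9, and higher in 0, 1 and 1, with medians of -1.0, -1.17 and -0.44. Of 14 Hippo pathway genes tested, 1 was higher and 0 lower against cDC1, 2 and 2 against cDC2, and 7 and 0 against B cells, with medians of -0.20, 0.52 and 0.44. With cells that carried RNA of another lineage left out of all types, 10 were tested, and 1 was higher and 1 lower against cDC1, 1 and 2 against cDC2, and 4 and 0 against B cells. Of 4 sex-linked genes tested, 1 was higher than in cDC1, 2 were lower than in B cells and 0 were called against cDC2 in the edgeR test, with medians of 0.19, 0.27 and -0.45. Xist had 0 UMIs in pDCs of all 4 libraries, and the Y-linked Ddx3y had 97.9, 94.2, 130 and 113 CPM.

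pDCs of 1 library were not uniform among themselves. Igkc was found in 50% of pDCs in WT, 46.2% in YAPKO, 50.9% in TAZKO and 58% in DKO, beside 4.04%, 3.85%, 2.31% and 3.72% of T cells. With each cell thinned to 1000 UMIs the shares were 32.3%, 21.5%, 24.8% and 30% in pDCs and 1.68%, 0.577%, 0.71% and 0.86% in T cells. Ly6d spread widely, with a median of 24 UMIs and a highest of 178 in WT, 26 and 197 in YAPKO, 14 and 90 in TAZKO, and 9 and 93 in DKO. Bst2 was more even, and its top 10% of cells held between 16.6% and 19.3% of its UMIs. Thinned to 2000 UMIs, the variance of Ly6d was 5.77, 6.4, 3.91 and 4.74 times its mean, and that of Bst2 1.56, 2.33, 1.84 and 2.1 times. Ly6d therefore varied more from cell to cell than Bst2 in each library.

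Between genotypes, the number of genes at least 2-fold from WT was counted in summed pDCs. A gene was compared where it had at least 50 UMIs over both libraries, on CPM of the summed pDCs. In YAPKO 116 of 7039 genes were at least 2-fold higher and 50 lower, in TAZKO 271 of 6609 and 141, and in DKO 387 of 8160 and 84. With no second marker required, 113 genes were lower in YAPKO and 88 in DKO, so that the order of the lower counts turned. The median log2 ratio over all genes was 0.04 in each. In the filtered pDCs the counts were 36 and 46 of 3802 genes, 214 and 103 of 4010, and 215 and 68 of 5197. Of these, 6 and 18 in YAPKO, 105 and 49 in TAZKO and 67 and 36 in DKO were past the fold in the same direction in all pDCs. These ratios share the WT library, so they are not independent of each other.

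Few identity genes were past the 2-fold in any knock-out library, and whether their number differs from that of other genes was not tested. Of 31 identity genes, 0 were past the 2-fold in YAPKO, where 1.65% of all genes were higher and 0.71% lower. In TAZKO 1 was lower, Ctsl, and 0 higher, where 4.1% of all genes were higher and 2.13% lower. In DKO 2 were lower, Ly6c2 and Ly6d, and 0 higher, where 4.74% of all genes were higher and 1.03% lower. The median ratios were -0.08, -0.13 and -0.08 in log2.

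Ly6d, a surface protein of lymphoid progenitors and pDCs, had 3562 CPM in WT, 3076 in YAPKO, 2358 in TAZKO and 1610 in DKO. It was highest in WT and lowest in DKO, with a log2 ratio to WT of -0.21 (-0.28 to -0.15) in YAPKO, -0.60 (-0.67 to -0.53) in TAZKO and -1.15 (-1.21 to -1.08) in DKO. B cells, which express it as well, had 2165, 2356, 1950 and 1929 CPM, with DKO close to the rest. A Ly6d UMI was found in 99%, 98.5%, 96.7% and 90% of pDCs and in 1.01%, 0.769%, 1.24% and 2.58% of T cells. Thinned to 1000 UMIs the shares were 90.6%, 83.6%, 76.6% and 63.7% in pDCs and 0.673%, 0.192%, 0.178% and 0.716% in T cells. Ly6c2 followed the same order, with 2107, 1827, 1517 and 1017 CPM and a DKO ratio of -1.05 (-1.14 to -0.97).

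Cadm1, a cell adhesion molecule of the cDC1 marker list, was singled out after its values were seen. It had 309 CPM in pDCs of WT, 244 of YAPKO, 365 of TAZKO and 41.5 of DKO. DKO stood apart from the other 3, with a log2 ratio to WT of -2.90 (-3.22 to -2.58), and of -2.99 (-3.39 to -2.60) in the filtered pDCs. In cDC1 of the same libraries Cadm1 had 188, 137, 219 and 235 CPM, so that the low value in DKO was not shared by cDC1. The whole list of 5 cDC1 markers summed to 424, 433, 469 and 158 CPM in pDCs, led by Cadm1 except in DKO, where Clec9a led, and Xcr1 was at 0 in WT and TAZKO.

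Single receptors differed in TAZKO pDCs. Cxcr3, at 68.1 CPM in WT, 73.9 in YAPKO, 19.5 in TAZKO and 65.5 in DKO, was low in TAZKO, with a log2 ratio to WT of -1.80 (-2.48 to -1.15). Ccr2, a receptor of bone marrow exit, had 260, 257, 125 and 225 CPM and was lowest in TAZKO, at -1.06 (-1.34 to -0.77). Il3ra, the chain of the interleukin 3 receptor, had 43, 48.6, 12.6 and 40.9 CPM, -1.77 (-2.64 to -0.95) in TAZKO. Of 13 trafficking receptors compared in TAZKO 1 was higher and 3 lower, with a median of 0.03, beside 4.1% and 2.13% of all genes. In YAPKO they were 0 and 0 of 13 (median 0.12), and in DKO 1 and 0 of 15 (0.03). Over all genes 1.65% were higher and 0.71% lower in YAPKO, and 4.74% and 1.03% in DKO. In filtered pDCs 1 trafficking receptor was higher and 2 lower of 11 in TAZKO, beside 5.34% and 2.57% of all genes. In YAPKO 1 and 0 of 12 were past the fold, beside 0.947% and 1.21%, and in DKO 0 and 0 of 12, beside 4.14% and 1.31%. S1pr1, among the 3 lower in all pDCs, had 0 CPM in WT and 6.41 in TAZKO in filtered pDCs. It was under the floor of 3 UMIs in WT, so that its direction cannot be told there. Of 15 interferon and cytokine receptors 1 was lower in TAZKO and 0 of 16 in YAPKO or DKO were past the fold. The medians were 0.11 in YAPKO, -0.16 in TAZKO and -0.15 in DKO. In filtered pDCs 0 were past the fold, of 13 in YAPKO, 12 in TAZKO and 14 in DKO. Il3ra was thus no longer counted in TAZKO. TAZKO also had the highest Tcf4, at a ratio of 0.52 (0.43 to 0.61), and Cbfa2t3, a corepressor of pDC and cDC fate, had 162, 167, 350 and 217 CPM, at 1.11 (0.83 to 1.39) in TAZKO.

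**Figure D5:**
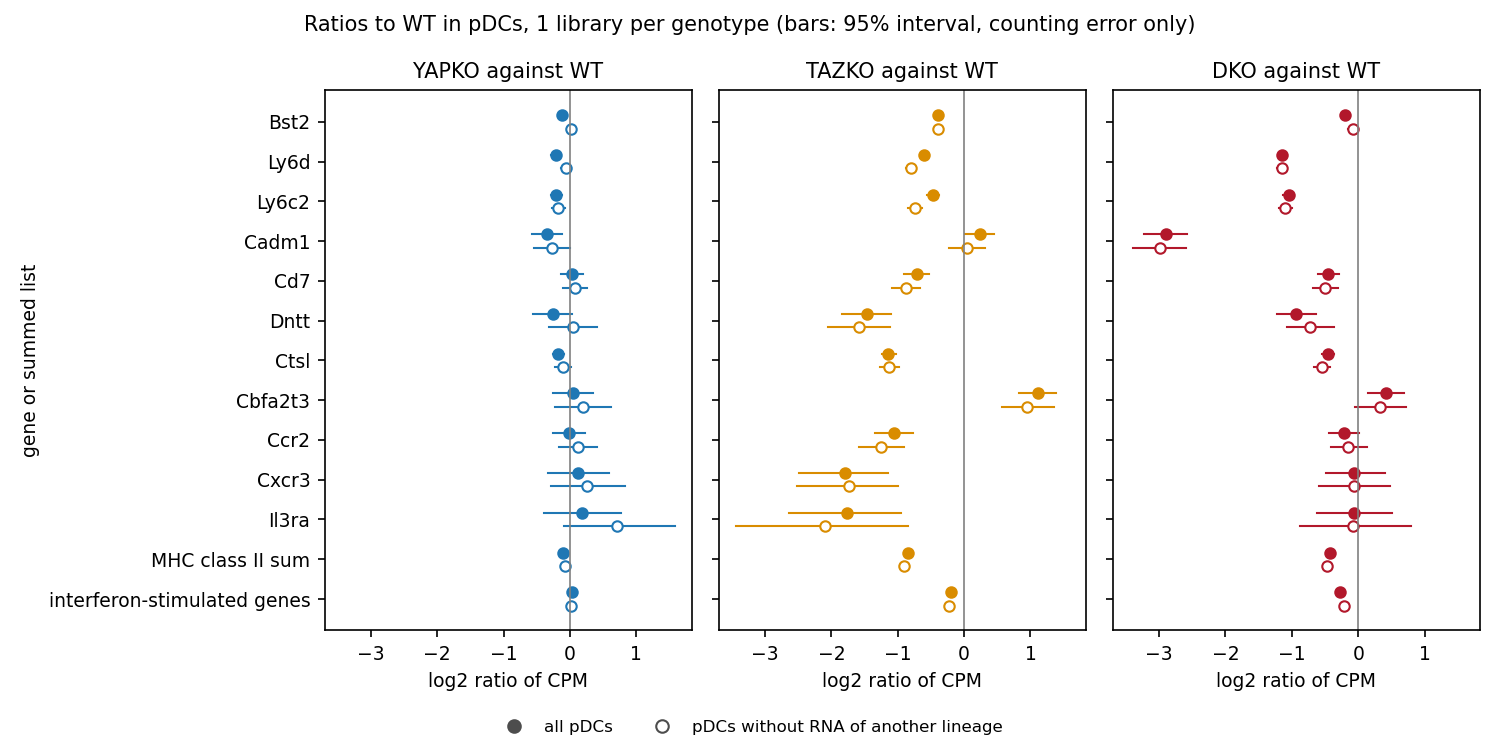
Log2 ratio of CPM to WT in pDCs of YAPKO, TAZKO and DKO for single genes and 2 summed lists, in all pDCs (filled) and in filtered pDCs (open), with exact 95% intervals as bars. Cadm1, Ly6d and Ly6c2 are low in DKO, Cbfa2t3 is high and Cxcr3, Il3ra, Dntt, Ctsl and Ccr2 low in TAZKO, and YAPKO lies near 0.

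As the plot of ratios to WT shows, the values named in its caption kept their direction in filtered pDCs. Ctsl, a lysosomal protease that also processes endosomal receptors, had 1920 CPM in WT, 1697 in YAPKO, 872 in TAZKO and 1400 in DKO, and was the 1 sensing gene past the fold, -1.14 (-1.24 to -1.03) in TAZKO. The medians of the sensing list were -0.01, -0.02 and -0.14 over 18, 17 and 20 genes compared. All genes were past the fold, higher and lower, in 1.65% and 0.71% in YAPKO, 4.1% and 2.13% in TAZKO, and 4.74% and 1.03% in DKO. Dntt was at -0.26 (-0.55 to 0.03) in YAPKO, -1.47 (-1.84 to -1.10) in TAZKO and -0.94 (-1.23 to -0.64) in DKO. Among the lymphoid-type genes it was the 1 past the fold in TAZKO, and Ly6d the 1 in DKO, with list medians of -0.17, -0.34 and -0.18 over 12, 11 and 11 genes compared. Among transcription factors Cbfa2t3 in TAZKO and Id2 in DKO were past the fold, and 0 in YAPKO, of 17 compared in each, with medians of -0.05, 0.37 and 0.05. In filtered pDCs Id2 was no longer past the fold in DKO.

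The summed class II genes stood lower in TAZKO and DKO than in WT and YAPKO, with 0 of the 4 genes past the 2-fold in any of the 3 comparisons with WT. The sum of H2-Aa, H2-Ab1, H2-Eb1 and Cd74 was 13213 CPM in WT, 12276 in YAPKO, 7390 in TAZKO and 9791 in DKO. All 4 genes were called lower in pDCs than in each of the 3 other types, with medians of -1.92, -2.62 and -1.26. Over all genes 12.2%, 16.4% and 23.5% were called lower than in cDC1, cDC2 and B cells. The log2 ratio of the sum to WT was -0.11 (-0.14 to -0.07) in YAPKO, -0.84 (-0.88 to -0.80) in TAZKO and -0.43 (-0.46 to -0.40) in DKO. Cd74 was lowest in TAZKO in other cells too, since cDC2 had 28860, 27168, 13531 and 22568 CPM and B cells 15130, 15387, 7771 and 10473. The larger list of class II and costimulation had 0 genes past the fold in YAPKO, H2-DMb1 and H2-DMb2 lower in TAZKO, and Ccr7 higher in DKO, of 11, 10 and 11 compared, with medians of 0.05, -0.84 and -0.30. The shares of all genes, higher and lower, were 1.65% and 0.71% in YAPKO, 4.1% and 2.13% in TAZKO, and 4.74% and 1.03% in DKO. In filtered pDCs 0 of 10 genes of the larger list were past the fold in YAPKO and 0 of 10 in DKO. There 1 of 9 was lower in TAZKO, beside 2.57% of all genes. Ccr7 was thus no longer counted in DKO.

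As a sum over all pDCs, interferon-stimulated genes lay nearer to WT than the class II genes in each knock-out library. By list medians they did not in YAPKO or DKO, and whether the lists differ was not tested. Bst2, also a pDC identity gene with its CPM given above, made up a large part of the summed interferon-stimulated genes in every library. The sum therefore does not describe the other members alone. Their sum over 45 genes was 9765 CPM in WT, 9942 in YAPKO, 8561 in TAZKO and 8063 in DKO, a log2 ratio to WT of 0.03 (-0.01 to 0.06), -0.19 (-0.23 to -0.15) and -0.28 (-0.31 to -0.24). TAZKO and DKO were slightly low, but not under limits of 500 to 6000 on UMIs, where the ratios were -0.06 (-0.16 to 0.05) and -0.05 (-0.15 to 0.04), and YAPKO was high, at 0.23 (0.12 to 0.34). In YAPKO Ifit1, Ifit3, Isg20 and Phf11d were at least 2-fold higher, in TAZKO Cxcl10 was lower, and in DKO Cxcl10 and Gbp3 were lower, with medians of 0.16, -0.15 and -0.36. They were among 38, 31 and 37 genes compared, and over all genes the shares higher and lower were 1.65% and 0.71% in YAPKO, 4.1% and 2.13% in TAZKO, and 4.74% and 1.03% in DKO. Ifit3, an antiviral effector, had 14.3, 71.4, 22.6 and 26.3 CPM, and 0, 2.27, 2.14 and 1.97 in the filtered pDCs. The high value of YAPKO was thus not seen in them.

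Most secreted factors had too few UMIs in filtered pDCs to be compared. Past the fold over all genes were 1.65% higher and 0.71% lower in YAPKO, 4.1% and 2.13% in TAZKO, and 4.74% and 1.03% in DKO. Of 10 compared in YAPKO 3 were higher and 3 lower, of 8 in TAZKO 1 and 4, and of 12 in DKO 3 and 2, with medians of 0.23, -1.16 and -0.01. In filtered pDCs 0 were higher and 1 lower of 2 in YAPKO, 0 and 0 of 2 in TAZKO, and 1 and 0 of 4 in DKO, with medians of -1.13, -0.26 and 0.43. The log2 ratio of the summed list to WT was -0.71, -1.20 and -0.56 in all pDCs and -0.86, -0.25 and 0.17 in filtered pDCs. Ccl4 was among the lower ones in YAPKO and TAZKO, at -2.20 (-2.46 to -1.95) and -1.43 (-1.66 to -1.20). Secretory pathway (28 compared), cytochrome oxidase (5), kallikrein (1) and sex-linked genes (4) had 0 past the fold in each genotype, with medians between -0.50 and 0.19. The value of -0.50 was that of the 1 kallikrein in TAZKO. Among transitional dendritic cell genes Lyz2 was higher in YAPKO, and Clec12a and Lyz2 lower in TAZKO, with medians of 0.29, -0.10 and -0.01. Lyz2 had 179, 464, 28.3 and 190 CPM, but 2.41, 20.5, 3.2 and 38.1 in filtered pDCs. Among Hippo genes Ccn2 was lower in DKO and 0 were past the fold in YAPKO or TAZKO, with medians of 0.04, 0.34 and 0.03, and Ccn2 had 0, 3.41, 0 and 0 CPM in filtered pDCs. Of dividing cell genes 1 of 8 was lower in YAPKO, 3 of 5 in TAZKO and 2 of 7 in DKO, where 1 was higher, with medians of -0.81, -1.03 and -0.12. Stmn1, a microtubule regulator of dividing cells, had 152, 89.1, 31.4 and 26.9 CPM, highest in WT.

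A few stress genes were lower in each knock-out library than in WT. Hspa1b, an inducible HSP70 chaperone, had 538 CPM in WT, 8.61 in YAPKO, 141 in TAZKO and 28.9 in DKO, a ratio of -5.96 (-6.76 to -5.27), -1.93 (-2.17 to -1.70) and -4.22 (-4.56 to -3.88). The order was the same in cDC1, with 753, 55.5, 146 and 124 CPM, and in B cells, with 402, 12.1, 155 and 64.9. Fos, an immediate early factor, had 139, 40.5, 27.7 and 68.1 CPM in pDCs. Of this list 1 of 17 was higher and 5 lower in YAPKO, 0 of 17 and 4 in TAZKO, and 1 of 18 and 4 in DKO, with medians of -0.33, -0.23 and -0.12. All genes were past the fold in 1.65% and 0.71%, 4.1% and 2.13%, and 4.74% and 1.03%. In filtered pDCs the summed list had a ratio to WT of -0.81 in YAPKO, -0.04 (-0.13 to 0.04) in TAZKO and -0.33 in DKO, so that as a whole it was not apart from WT in TAZKO. Handling of the tissue and genotype cannot be told apart with 1 library each.

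A fixed rule also named the genes most different in both YAPKO and DKO from both WT and TAZKO. Of 9992 genes, 27 were at least 2-fold higher and 16 lower by this rule. The 8 highest were Mgp, Cxcl2, Cib3, Igfbp5, Nts, Emp1, Anxa1 and Fmo2. Cib3, a calcium-binding protein, had 0 UMIs in WT, and 6.08 CPM in YAPKO, 0.629 in TAZKO and 81.7 in DKO, at least 4.51 (log2) higher in DKO than in WT. It had 0, 4.55, 1.07 and 69 CPM in filtered pDCs, and 1.18, 18.7, 1.49 and 201 in B cells. The other 7 had at most 6.57 CPM in filtered pDCs of any library. The filter did not remove hepatocyte RNA, and whether the Cib3 RNA came from the pDCs themselves was not tested. The 8 lowest were Elovl3, Gm43305, Hspa1b, Mup7, Irf4, Mir6236, Gm37084 and Gm26782. They include Mup7, a major urinary protein gene of hepatocytes, and pDCs carried hepatocyte RNA, as given above. Whether the RNA of these 8 genes came from the pDCs themselves was not tested. Mir6236, annotated within ribosomal RNA, had 2158, 866, 3115 and 590 CPM in pDCs and 5122, 2170, 6438 and 1392 in B cells. Irf4, a factor of cDC2 and plasma cells, had 11.9, 3.54, 13.2 and 4.65 CPM. The most abundant transcripts of pDCs outside mitochondrial and ribosomal protein genes were Malat1, CT010467.1, Tmsb4x, Actb and Fth1, led by Malat1 with 25147, 22462, 30362 and 30775 CPM.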

How the data were processed

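Single-cell RNA of 4 mouse livers was read from the deposited count matrices, which hold UMI counts that the authors made with Cell Ranger on mm10 without normalization. The labels name version 6.0.1 and the matrix headers 4.0.0. A barcode was kept when its number of genes seen lay between 500 and 6000 and its mitochondrial share was no more than 10%, and no doublet caller was run. pDCs, other cell types and gene lists were chosen by marker genes with earlier results of these data known.

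UMIs were summed over the cells of a type in each library. Cell types were compared with edgeR 4.0.16 (quasi-likelihood, TMM, filterByExpr, library as a block) in R 4.3.3, at a Benjamini-Hochberg adjusted p of at most 0.05. The SE printed is the fold change divided by the square root of its F statistic. DESeq2 1.42.0 was an alternative. Libraries, each of 1 mouse, were compared without a test, as CPM with exact Poisson intervals, conditional binomial intervals of ratios and Clopper-Pearson intervals of shares. Genes needed at least 50 UMIs over both libraries and a 2-fold difference, and a gene at 0 was given a floor of 3 UMIs. Summed pDC depth was 837194 UMIs in WT, 1975254 in YAPKO, 1590120 in TAZKO and 3009280 in DKO, so that WT sets the precision of ratios. Named genes were the 10 furthest above and below all 3 other types, ranked by their smallest fitted fold change, and the 8 highest and 8 lowest in both YAPKO and DKO against WT and TAZKO, ranked with 1 UMI added per gene. Cadm1 and the muscle genes were added after their values were seen. Alternatives changed the Siglech minimum, the second marker, the limits on barcodes, depth, scaling, the filter, the block, the tool, the libraries and the cells with RNA of another lineage. Python 3.11.15 and SciPy 1.17.1 were used.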

Additional observations from a re-analysis of the deposited data

How the results depend on the processing

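The shares of pDCs moved with depth and with RNA of other lineages. Limits of 500 to 6000 UMIs in place of genes gave 0.174% in WT, 1.04% in YAPKO and 0.716% in TAZKO. Thinning to 2000 UMIs gave 0.976% in WT, 1.95% in YAPKO and 3.33% in DKO. Leaving out pDCs with RNA of another lineage, which only lowers the count, gave 0.871% in WT, 2.06% in YAPKO, 1.78% in TAZKO and 3.24% in DKO. The other 18 of 28 alternative shares stayed within the interval.

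Genes called lower than in cDC1 numbered 1265, between 762 and 1058 when each library was left out in turn (762 without DKO), and 2317 with pDCs carrying RNA of another lineage left out. That step gave 1776 genes higher than in B cells, of which 1486 were shared with the 2772 and 381 of the 2772 were called the opposite way. With no replicate block, 1040 genes were higher and 900 lower than in cDC1. Of 66 alternative counts against other types 63 were within 1.5 times. Of 945 comparisons of single genes DESeq2 left 904 on the same side of the threshold, with 31 weaker and 10 stronger. Between 54 and 82 were weaker with 1 library left out, and 0 were reversed by DESeq2 or by leaving out a library. Leaving out cells with RNA of another lineage from all 4 types was chosen after seeing the data.

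A minimum of 100 UMIs gave 50 genes higher and 22 lower in YAPKO, 123 and 73 in TAZKO, and 176 and 39 in DKO. Without a second marker 113 genes were lower in YAPKO. Leaving out pDCs with RNA of another lineage gave 36 genes higher in YAPKO and 215 in DKO.

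The log2 ratio of summed interferon-stimulated genes to WT was 0.23 (0.12 to 0.34) in YAPKO, -0.06 (-0.16 to 0.05) in TAZKO and -0.05 (-0.15 to 0.04) in DKO under limits on UMIs, so that the last 2 intervals include 0. In DKO it was -0.22 without pDCs carrying RNA of another lineage and -0.23 as a mean over cells. The class II ratio in YAPKO was -0.04 without a second marker, -0.02 under limits on UMIs and -0.14 as a mean over cells. In TAZKO it was -0.75 under limits on UMIs and -0.91 without other-lineage RNA. In DKO it was -0.39 with at least 5 Siglech UMIs, -0.30 under limits on UMIs and -0.47 without other-lineage RNA. The cause of these shifts was not tested.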
